A study of Mus musculus with 4 samples.

Results

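The genes described here are 7 immunoglobulin genes of the mouse: Igkc, the constant region of the kappa light chain, and Iglc2, one of the constant regions of the lambda light chain; Igha, Ighg2c, Ighg2b and Ighm, the constant regions of the heavy chains of IgA, IgG2c, IgG2b and IgM; and Jchain, the joining chain. They were chosen by gene symbol, because their transcripts had stood out in these sections when the list was drawn up, so their overall levels are given as a description with no test. They are 7 of the 32285 genes in the matrices, and 7 of 7 were found. The matrices list 392 immunoglobulin genes and gene segments in all. Iglc2 is on the list with 9 unique molecular identifiers (UMIs, each standing for one captured transcript), while Iglc1, with 24, is not.

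An antibody is built from heavy and light chains, each with a variable part that binds antigen and a constant part that sets the class of the antibody. The J chain links IgA and IgM units into polymers that can be carried across epithelia. These genes are transcribed by B cells and above all by plasma cells, which fill much of their RNA with immunoglobulin transcripts, and a healthy neural retina is not known as a site of either.

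The samples were 4 capture frames of Visium spatial transcriptomics, a method that captures RNA from a tissue section on a grid of barcoded spots. Each frame held cryosections of fresh-frozen posterior eyes of C57BL/6J mice, and the labels call the 4 frames biological replicates 1 to 4. All 4 carry one and the same treatment label, naive with the adeno-associated virus AAV2/2. The study made such viruses to overexpress Wif1 from a CMV promoter, as CMV-Wif1-HA-IRES-GFP or CMV-Wif1-HA, with CMV-IRES-GFP as the control virus, but the labels do not say which virus or time a frame stands for. The age, sex and genotype of the mice beyond the strain are not in the labels, so no treatments were compared, and every comparison below is between regions within frames. A p-value then measures the spread between these 4 frames.

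The frames held 4603 spots over tissue and 3522010 UMIs, with between 674029 and 1066633 UMIs a frame. Frame 4 was the shallowest, with a median of 430 UMIs a spot, against 531, 628 and 630.5 in frames 1, 2 and 3. Regions were drawn from 99 marker genes, none of them an immunoglobulin gene, and carry the names of their leading genes. The ganglion cell markers include Thy1 and Ebf1, which lymphocytes also transcribe. Each region is a mixture of cells. Photoreceptor genes led 778 spots, ganglion cell genes 507, pigment genes 275, collagen and other fibrous tissue genes 268, inner nuclear layer genes 138, muscle genes 109, myelin genes 76 and keratin genes of surface epithelium 71, so that the sections, labelled retina, also held the coat of the eye and tissue around it. Clusters with 219 spots were left unnamed because their leading genes went against the class with the most markers, and 2162 spots (47.0%) had too few marker UMIs to be placed. In spots, fewer cells of a type and less RNA per cell cannot be told apart.

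For most of the members the sequence is that of a constant region shared by every antibody of a class. By RefSeq on GRCm38.p6, the build that mm10 stands for, Igkc lies at chr6:70726435-70726754. The heavy chain genes share one locus on chromosome 12, where Igha lies at chr12:113256204-113260236, Ighg2c at chr12:113287389-113288932, Ighg2b at chr12:113304314-113307933 and Ighm at chr12:113418826-113422730. Iglc2 lies at chr16:19198536-19198852. These 6 are annotated as constant region genes, whose transcripts start at a variable segment upstream. Jchain, a protein-coding gene at chr5:88519809-88527897 on the minus strand, has a start of its own and is the 1 of 7 members with a promoter entry in the RefSeq table. That promoter, 250 bases before to 50 bases after the start (chr5:88527848-88528147, minus strand), is shown because Jchain and the antibody chains turned up in the same spots. Capitals mark the matches to the E-box, CANNTG, the motif family bound by E proteins of lymphocytes.

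Jchain promoter: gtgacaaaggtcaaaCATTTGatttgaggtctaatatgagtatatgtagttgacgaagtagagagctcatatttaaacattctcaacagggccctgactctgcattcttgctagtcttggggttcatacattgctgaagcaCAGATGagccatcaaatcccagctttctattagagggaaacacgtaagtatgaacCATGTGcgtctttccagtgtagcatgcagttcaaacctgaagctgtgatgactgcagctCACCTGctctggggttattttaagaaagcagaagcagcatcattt

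The script found 4 matches on both strands, 235, 109 and 54 bases before the start and 6 bases after it. An E-box is common: 72.3% of the 32851 promoters in the table hold one. The match 6 bases after the start also fits CAGGTG, found in 20.2% of promoters. The octamer of immunoglobulin promoters, ATGCAAAT, and TATAAA had no match in this window, and 1.74% and 13.6% of the promoters in the table hold them.

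Kappa light chain was found in more spots than any other member. Igkc had 435, 839, 1130 and 463 CPM (counts per 1000000 UMIs) in frames 1 to 4, or 717 ± 332 CPM (SD, n = 4), from 2598 UMIs in 454 spots. Frames 2 and 3 stood above frames 1 and 4. Lambda constant regions were scarce: Iglc2 had 9 UMIs in 8 spots, Iglc1 24 and Iglc3 4, and Iglc4 had none. Lambda genes together made up 1.40% of the kappa and lambda UMIs (37 UMIs beside 2598 of kappa; 95% Wilson interval 1.02 to 1.93%, which covers counting error only). Some lambda genes, such as Iglc2 and Iglc3, are close in sequence, so the split of reads between those is uncertain.

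Among the heavy chains, 2 classes led, and the leading one differed from frame to frame. Igha had 142, 287, 367 and 122 CPM in frames 1 to 4 (229 ± 118, SD, n = 4; 840 UMIs in 193 spots). Ighg2c, the IgG2 gene that C57BL/6 mice carry in the place of Ighg2a, had 212, 150, 234 and 168 CPM (191 ± 38.7; 670 UMIs in 173 spots). Ighg2c was the steadiest of the members between frames, its highest frame 1.56 times its lowest, against 3.02 times for Igha. As shares of the 1816 heavy chain UMIs of the 4 members, Igha made up 46.3%, Ighg2c 36.9%, Ighm 12.3% and Ighg2b 4.57%; these are shares of captured 3′ ends, not corrected for transcript length. Ighg2c led in frames 1 and 4, with 54.6% and 48.7%, and Igha led in frames 2 and 3, with 56.1% and 47.0%.

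The other heavy chains were scarce or missing. Ighm, the first heavy chain a B cell makes, had 23.4, 43.1, 145 and 41.5 CPM in frames 1 to 4 (223 UMIs in 78 spots), and frame 3 stood far above the others. Ighg2b had 11.2, 30.9, 35.0 and 13.4 CPM (83 UMIs in 31 spots). Ighd, which naive B cells transcribe beside Ighm, had 0 UMIs in all 4 frames, as did Ighg1, which allows up to 0.852 CPM (3 counts of the total). Ighg3 had 4 UMIs and Ighe 1. Ighg2b, Ighg2c, Ighg1 and Ighg3 are close in sequence, so some reads could be shared or lost among them. The variable, diversity and joining segments gave no second readout: 8 of 379 had a UMI, 10 UMIs in all.

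Jchain had 135, 168, 253 and 93.5 CPM in frames 1 to 4 (162 ± 67.7, SD, n = 4; 587 UMIs in 184 spots). The ratios between the chains varied less than their levels did. Jchain stood at 0.348, 0.328, 0.324 and 0.272 UMIs per heavy chain UMI in frames 1 to 4 (0.318 ± 0.0326). Igkc stood at 1.12, 1.64, 1.45 and 1.34 per heavy chain UMI (1.39 ± 0.217). All 7 members together came to 961, 1520, 2168 and 902 CPM, or 0.142% of all UMIs.

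**Figure D1:**
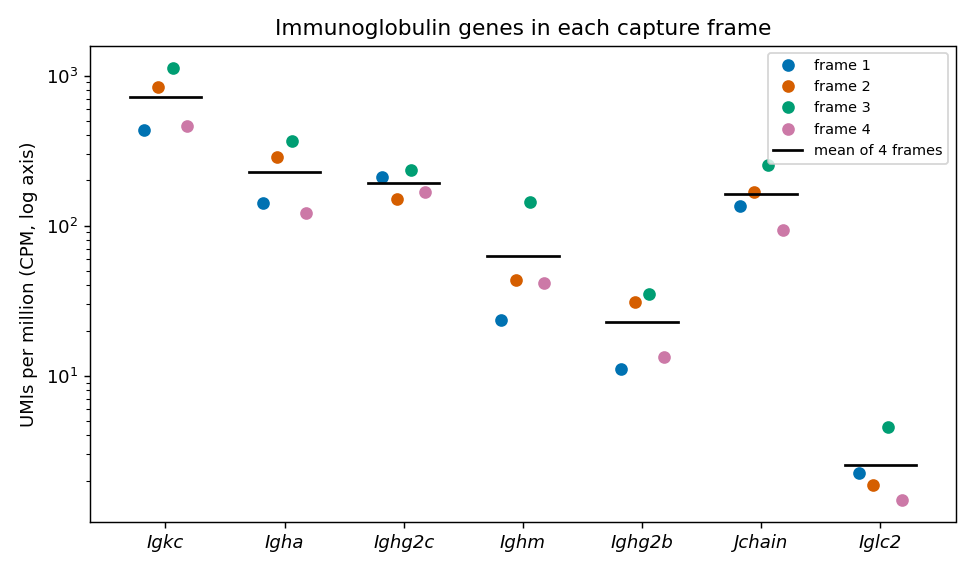
CPM (log axis) of the 7 members, with a point for each of the 4 frames and a bar for their mean. Igkc lies between 435 and 1130 CPM, Ighg2c varies least from frame to frame, and Ighm in frame 3, at 145 CPM, stands above its other 3 frames.

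Antibody RNA was gathered in few spots. All members together had at least 1 UMI in 717 of 4603 spots (15.6%), and 21 spots held 50% of their 5010 UMIs. The 10 richest spots held 37.1% of the member UMIs while holding 0.921% of all UMIs. The same measure, taken from each gene's own 10 highest spots, was 39.9% for Igkc, 44.2% for Ighg2c, 45.0% for Igha, 43.3% for Jchain and 60.5% for Ighm. It was 67.5% for Ighg2b, whose 83 UMIs make a high share easy to reach. By comparison it was 16.1% for Ptprc, the pan-leukocyte marker CD45, 22.1% for complement C3, 12.2% for Vwf of vessel endothelium and 14.6% for Gfap of astrocytes and stressed Müller glia.

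Among the 2694 genes with at least 200 UMIs, whose median share in 10 spots was 10.9%, Ighm had the highest, Igha ranked 4, Ighg2c 5, Jchain 6 and Igkc 8. The genes between them were a keratin, Krt7, and the muscle myosins Myh2 and Myh4. Taken within each frame, the top 10 spots held 51.8, 65.7, 70.7 and 43.3% of the Igkc UMIs of frames 1 to 4.

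**Figure D2:**
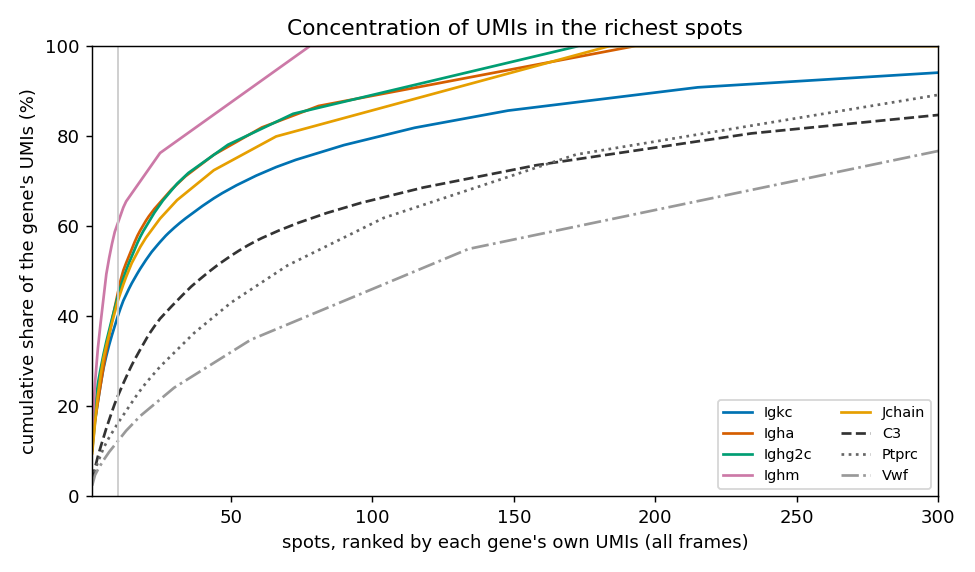
Cumulative share of each gene's UMIs (%) over spots ranked by that gene, for the 300 highest spots of all 4 frames. At the vertical line, 10 spots, the 5 members plotted lie between 39.9 and 60.5%, and C3, Ptprc and Vwf between 12.2 and 22.1%.

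The richest spots were in different places. Of the 10, 5 lay in frame 2 and 5 in frame 3. By region 4 were fibrous and 2 ganglion, with 1 each in the inner nuclear, pigmented, epithelium and unplaced spots. The richest of all, a ganglion spot of frame 3, had 468 member UMIs of 10085 (4.64%): 265 of Igkc, 106 of Igha, 56 of Jchain, 40 of Ighg2c and 1 of Ighm. The next, a fibrous spot of frame 2, had 292 member UMIs of 2683 (10.9%), with 86 of Ighg2c and 28 of Igha. Another in the inner nuclear region of frame 2 had 32 UMIs of Igha, 39 of Jchain and none of Ighg2c or Ighm. Igkc shared 8 of its 10 highest spots with Igha and 2 with Ighg2c.

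A barcode stands for one grid position, so frames share barcodes, and some of the richest places coincided. Frames 2 and 3 had 761 barcodes in common, of which 14 had at least 10 member UMIs in frame 2 and 16 in frame 3, and 5 had them in both. These 5 places held 644 member UMIs in frame 2 and 455 in frame 3. Isotypes differed at some of them: one place had 86 UMIs of Ighg2c in frame 2 and 1 in frame 3, and another had 8 of Ighm in frame 2 and 33 in frame 3. The other 5 pairs of frames had 0 or 1 place rich in both. Of the 267 shared barcodes of frames 2 and 3 placed in a region in both, 77 fell in the same region.

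Light and heavy chains were often, but not always, found in the same spot. Of the 454 spots with Igkc, 199 (43.8%) also had a heavy chain member, with 45.2, 40.4, 46.4 and 44.1% in frames 1 to 4. Igha was found in 26.0% of Igkc spots, against 4.19% of all spots, and Ighg2c in 19.6%, against 3.76%. Conversely, 191 of the 390 heavy chain spots (49.0%) had no Igkc UMI. Most Igkc spots were shallow in Igkc, 239 of 454 having a single UMI. At 2 or more UMIs of each, the share of Igkc spots with a heavy chain was 51.6%.

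Jchain was found alone in 71 of its 184 spots (38.6%), that is, with neither Igkc nor a heavy chain member. Those spots held 83 of the 587 Jchain UMIs, at most 4 in a spot, and the other 504 lay beside antibody chains. With at least 2 UMIs required of each gene, 10 of 66 Jchain spots were alone.

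Across spots within a frame, Igkc went most closely with Igha (mean Pearson r of log values over the 4 frames 0.486) and Jchain (0.438), and less closely with Ighg2c (0.371). Igha and Jchain had 0.393, and Ighg2c and Jchain 0.238. The points share library and depth, so these describe the spots and carry no p.

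Single spots tended to hold a single isotype, but less so where heavy chain UMIs were many. Of the 390 spots with a heavy chain, 326 (83.6%) had 1 of the 4 isotypes, 47 had 2, 13 had 3 and 4 had 4, although 220 of the 390 had a single heavy chain UMI and could show no second. Among the 68 spots with at least 5 heavy chain UMIs, 37 still had 1 isotype, and in 42 the leading isotype made up at least 90%. Of the 10 spots richest in members, only the inner nuclear spot of frame 2, with 32 UMIs of Igha, had a single isotype. Igha led in 31 of the 68, Ighg2c in 30, Ighm in 4 and Ighg2b in 3, with 1 spot tied between isotypes. Of the 15 such spots in the ganglion region Ighg2c led 8 and Igha 7, and in the 10 of the fibrous region Igha led 6, Ighg2c 3 and Ighm 1. A Visium spot can hold several cells, so a mixed spot can be several cells of one isotype each.

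**Figure D3:**
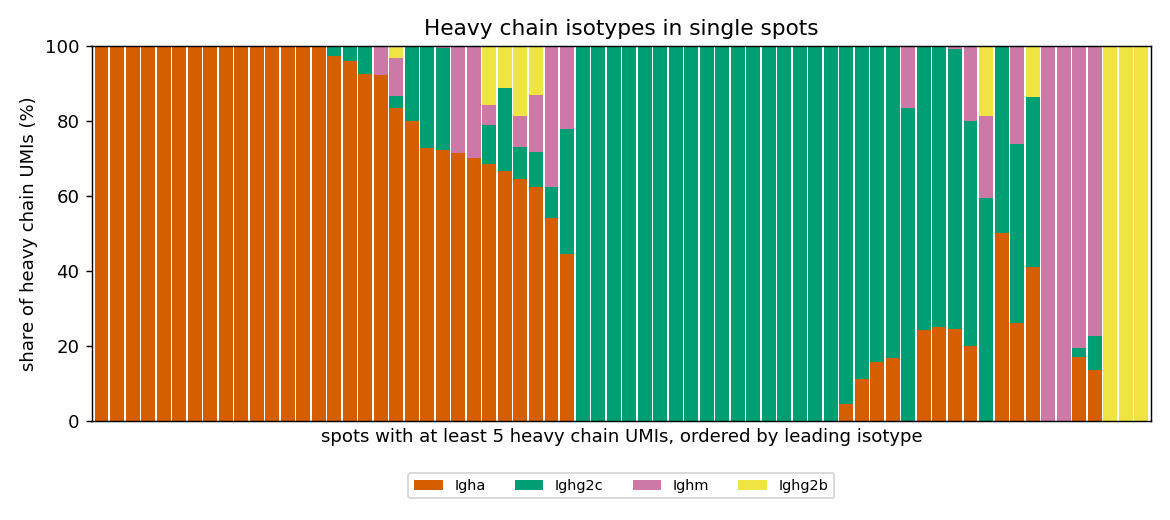
Share of heavy chain UMIs (%) from Igha, Ighg2c, Ighm and Ighg2b in each of the 68 spots with at least 5 heavy chain UMIs, 1 bar a spot, ordered by leading isotype. Bars of a single colour, 37 of 68, have 1 isotype.

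Per heavy chain UMI, J chain RNA was higher in spots led by Igha than in spots led by Ighg2c. In spots led by Igha, Jchain stood at 0.339, 0.390, 0.369 and 0.320 UMIs per heavy chain UMI in frames 1 to 4. In spots led by Ighg2c it stood at 0.117, 0.111, 0.106 and 0.234. The values did not overlap, and spots led by Igha were higher in 4 of 4 frames, with a mean of 0.354 ± 0.031 for Igha against 0.142 ± 0.0616 for Ighg2c (SD, n = 4). An exact two-sided permutation test over the 4 pairs gave p = 0.125, the smallest that 4 frames allow, so the difference could not pass a limit of 0.05. The numbers behind it were 257 Jchain and 690 heavy chain UMIs in the 31 Igha spots, and 69 and 515 in the 30 Ighg2c spots. A single spot gave 39 of the 101 Jchain UMIs of the Igha spots in frame 2, and another 56 of 129 in frame 3. In frame 4, 3 Igha spots had 8 Jchain and 25 heavy chain UMIs, and 1 Ighg2c spot gave 14 of 22 Jchain UMIs. The 4 spots led by Ighm had 41 Jchain UMIs to 88 heavy chain UMIs, but 36 of the 41 lay in 1 fibrous spot of frame 3. The others had 1, 0 and 4, beside 13, 22 and 12 heavy chain UMIs. The 3 spots led by Ighg2b had 0 to 21.

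**Figure D4:**
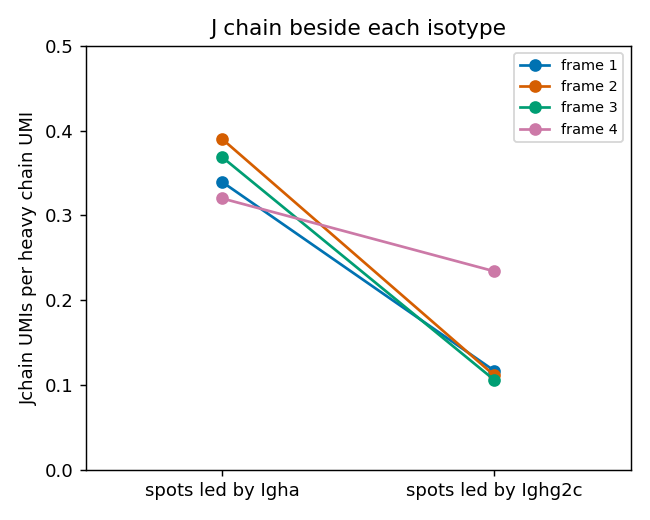
Jchain UMIs per heavy chain UMI in spots led by Igha (left) and by Ighg2c (right), spots with at least 5 heavy chain UMIs, summed within each frame, with a line joining the values of a frame. Each of the 4 lines runs higher at Igha, from 0.320 to 0.390, than at Ighg2c, from 0.106 to 0.234.

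By region, mean member levels were higher in the inner retina, coat and surface epithelium than in photoreceptor, muscle and myelin spots. Summed over the 7 members, the level was 2455 ± 2167 CPM in the fibrous region, 1818 ± 1153 in the ganglion region, 1769 ± 1748 in the epithelium and 1142 ± 1120 in the pigmented region (SD, n = 4). It was 1209 ± 1336 in the inner nuclear region (n = 3, since frame 4 had 7 such spots). It was 230 ± 62.3 CPM in the photoreceptor region, 86.3 ± 26.3 in muscle and 56.4 ± 55.9 in myelin (n = 3). The first 5 regions overlapped between frames and cannot be ordered. The pigmented region of frame 4, with 105 CPM from 2 UMIs, lay below the photoreceptor region of that frame, at 161. In frame 1 the inner nuclear region, at 273 CPM, lay near the photoreceptor region, at 226. The ganglion region, at 1096 to 3528 CPM, lay above the photoreceptor region, at 161 to 313, in every frame, and the photoreceptor region lay above muscle, at 60.5 to 122. The unplaced spots, which were shallow (median 273 UMIs), had 1986 ± 579 CPM and held 29.6% of the member UMIs, so a large part of the signal has no region.

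The single members varied widely between frames. Igkc had 891, 707, 1949 and 611 CPM in the ganglion region of frames 1 to 4, against 95.2, 123, 144 and 99.3 in the photoreceptor region. Igha had 139, 278, 667 and 90.8 in the ganglion region, against 17.8, 42.9, 49.6 and 24.8. Ighg2c had 253, 52.0, 412 and 260 in the ganglion region, against 23.8, 10.7, 24.8 and 24.8. Jchain had 189, 104, 447 and 121 in the ganglion region, against 83.3, 37.5, 54.6 and 12.4. For each of these genes no ganglion value fell among the photoreceptor values. How often other genes did the same was not tested. A difference between inner retina and photoreceptor region was known when the members were chosen, so these values are a description only. Ighg2b ran the other way, with 1 UMI in the ganglion region and 8 in the photoreceptor region, 7 of them in frame 3. In muscle, Igha had 0 of 98965 UMIs, which allows up to 30.3 CPM.

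In the fibrous region the frames fell far apart. Igkc had 190, 2436, 2381 and 539 CPM in frames 1 to 4, Igha 24.8, 737, 655 and 62.2, and Ighg2c 33.1, 657, 251 and 82.9. Frames 2 and 3 were high and frames 1 and 4 low. Without the 10 richest spots of all, 4 of which are fibrous, Igkc averaged 617 ± 559 CPM there and 585 ± 224 in the ganglion region.

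**Figure D5:**
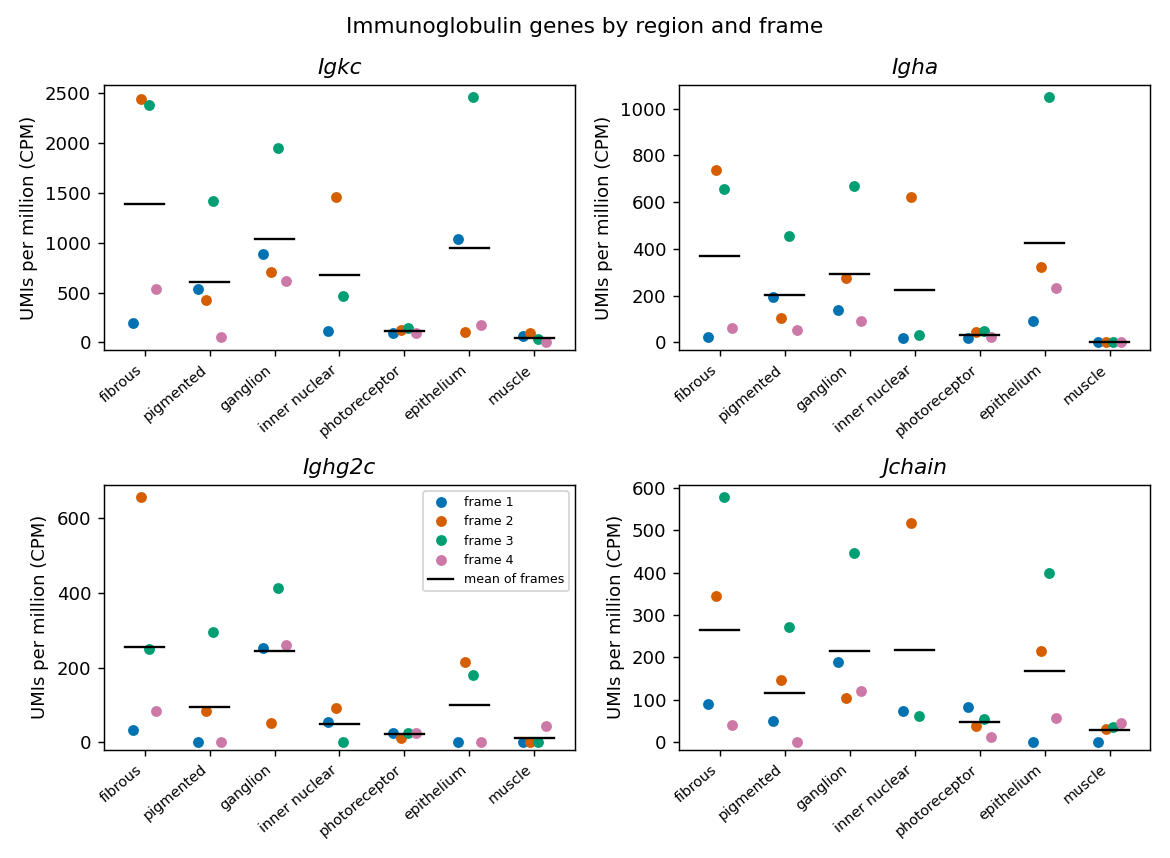
CPM of Igkc, Igha, Ighg2c and Jchain in 7 regions, with a point for each frame (3 frames for the inner nuclear region) and a bar for the mean. The ganglion points lie above the photoreceptor points for Igkc, Igha, Ighg2c and Jchain, and the fibrous points are split between frames 2 and 3, high for Igkc and Igha, and frames 1 and 4, low.

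Depth differed between regions, and the share of spots with a member was checked at equal depth. With each spot thinned to 300 UMIs, at least 1 member UMI remained in 16.9 ± 5.90% of fibrous spots, 10.5 ± 3.22% of ganglion spots, 5.05 ± 1.34% of photoreceptor spots and 3.09 ± 2.11% of muscle spots (SD, n = 4 frames). The thinning left out 2, 5, 25 and 14 shallower spots of these regions. Unthinned, the shares were 25.7, 21.1, 11.95 and 7.34%, at median depths of 1347.5, 1238, 783 and 750 UMIs. Thinned shares were 17.5 ± 5.0% in the epithelium, 9.41 ± 2.40% in the pigmented region and 9.07 ± 5.83% in the inner nuclear region (n = 3). Unplaced spots had 13.5 ± 1.36%, with 1167 shallower spots left out. In frame 1 the inner nuclear share, 3.23%, lay below the photoreceptor share, 5.38%. Photoreceptors and muscle are not known to make antibody, so their shares serve as the background here.

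Inner retina, the inner nuclear and ganglion regions combined, stood above the photoreceptor region in 4 of 4 frames for the 4 members with enough UMIs for the fit. The log2 fold was 2.80 for Igkc (SD of frames 0.502), 3.06 for Ighg2c (0.607), 2.79 for Igha (0.855) and 2.00 for Jchain (0.880). A difference here was known when the members were chosen, so no test is given.

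The coat, the pigmented and fibrous regions together, was compared with the neural retina, the photoreceptor, inner nuclear and ganglion regions, by edgeR's quasi-likelihood test on UMI sums with the frame as a block. Of all 4146 genes tested, 861 (20.8%) passed a Benjamini-Hochberg adjusted p of 0.05, 376 higher and 485 lower in the coat. Of the 4 members tested, 1 passed, a share near that background and no result about the members. It was Igha (log2 fold 0.77, SD of frames 0.486, adjusted p = 0.0148, higher in 4 of 4 frames), with 241 UMIs in the coat and 299 in the neural retina, which had more UMIs in all. That call was lost without frame 2 (log2 fold 0.60, adjusted p = 0.265), without frame 3 (0.68, adjusted p = 0.157), without the frame block (0.96, adjusted p = 0.542) and with DESeq2 (0.74, adjusted p = 0.0827), and it held in 5 of 13 other settings.

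The other members did not pass. The log2 fold was 0.73 for Igkc (adjusted p = 0.0872), 0.73 for Ighg2c (adjusted p = 0.733) and 0.50 for Jchain (adjusted p = 0.229), by edgeR. The fold of Ighg2c rested on frame 2: without it the log2 fold was -0.45. Igkc passed in 4 of 13 other settings: without frame 1 (log2 fold 1.07, adjusted p = 0.000273), at 50 panel UMIs a spot (0.80, adjusted p = 0.0102), with regions by highest class value (0.89, adjusted p = 0.000556) and with no filter on low counts (0.56, adjusted p = 0.00883). Jchain passed in 2, without frame 4 (0.64, adjusted p = 0.0329) and with regions by highest class value (1.05, adjusted p = 0.00705), and Ighg2c in 0.

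The 2 scarcer heavy chains were too low to be tested but leaned to the coat, on few UMIs. Ighm had 76 UMIs in the coat and 20 in the neural retina, and Ighg2b had 37 and 12, each higher in the coat in 4 of 4 frames by CPM. Some of these frames rested on very few UMIs. In the coat, Ighm had 3 in frame 1 and 3 in frame 4, and Ighg2b had 1 in frame 4. A single fibrous spot of frame 3 held 33 of the 76 Ighm UMIs. How often other genes were higher in 4 of 4 frames was not tested. Summed, a choice made after the values were seen, Ighm and Ighg2b made up 37.5, 15.6, 27.2 and 33.3% of the heavy chain UMIs of the coat in frames 1 to 4, against 4.94, 5.13, 8.60 and 1.45% in the neural retina. The 2 sets of values did not overlap. The coat shares of frames 1 and 4 rested on 24 and 12 heavy chain UMIs. Without the 10 richest spots the shares were 37.5, 24.1, 9.85 and 33.3% in the coat, against 4.94, 9.30, 24.3 and 1.45% in the neural retina, and frame 3 turned round.

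Within the inner retina the ganglion region was compared with the inner nuclear region in frames 1 to 3. Of 2331 genes tested, 274 (11.8%) passed, and of the 4 members tested 0 passed by edgeR; at an unadjusted p of 0.05 it was 1 (Ighg2c), and DESeq2 called 0. The log2 fold was 0.98 for Igkc (SD of frames 2.01, adjusted p = 0.723), 1.60 for Ighg2c (2.58, adjusted p = 0.0847), 0.79 for Igha (2.50, adjusted p = 0.785) and 0.07 for Jchain (2.42, adjusted p = 0.983). Frame 2 ran against the other 2 frames, with 707 CPM of Igkc in the ganglion and 1461 in the inner nuclear region. One inner nuclear spot of frame 2 held 92 of the 127 Igkc UMIs there. Ighg2c passed in 4 of 11 other settings: at 10 panel UMIs a spot (adjusted p = 0.0333), with regions by highest class value (adjusted p = 0.0261), with no filter on low counts (adjusted p = 0.0392) and without frame 2. Without frame 2, which left frames 1 and 3, all 4 members were among the 135 genes passing of 2491 tested. The log2 folds by edgeR were 2.53 for Igkc, 2.96 for Ighg2c, 3.60 for Igha and 1.95 for Jchain (adjusted p of 1.76e-07, 0.00195, 0.000592 and 0.0459). These rested on few counts. The inner nuclear region of frames 1 and 3 held 9 and 3 heavy chain UMIs, and 8 and 2 of Jchain.

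Genes of the cells that make antibody had few UMIs, in counts not corrected for transcript length. The 16 plasma cell genes on the list had 766 UMIs, most of them from genes that other cells also use, such as Xbp1 (123) and Ssr4 (105) of the secretory pathway. Mzb1, a chaperone of antibody-secreting cells, had 15 UMIs, 3 of them in the 87 spots with at least 10 member UMIs (24.7 CPM there and 2.90 in the spots with no member UMI). Tnfrsf17, the BCMA receptor of plasma cells, had 0, and Prdm1, the plasma cell regulator Blimp-1, had 22, none of them in those spots. Others had more there when summed over the frames. Sdc1, the plasma cell surface proteoglycan that epithelia also carry, had 11 of its 49 UMIs in those spots (90.6 against 10.5 CPM). Txndc5 had 13 of 83 (107 against 20.7 CPM) and Pou2af1, a coactivator of B lineage cells, had 4 of 6. Sdc1 and Txndc5 were higher there in 3 of 4 frames, and Pou2af1 in 1. The B cell genes reported here had 15 UMIs in all, and Ms4a1, Pax5, Cr2, Fcer2a and Bank1 were at 0. Of the 15 UMIs, 9 lay in the 87 spots (60.6 ± 43.5 CPM there and 2.06 ± 2.38 in the spots with none, SD, n = 4, higher in 3 of 4 frames), 5 of them of Cd79a, a signalling chain of the B cell receptor.

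The spots with antibody also differed from those without in several gene lists. The 87 spots with at least 10 member UMIs held 75.5% of the member UMIs, numbered 20, 25, 27 and 15 in frames 1 to 4, and had a median of 923 UMIs, against 531 in the 3886 spots with no member UMI. The plasma cell genes came to 872 ± 287 CPM in the rich spots and 180 ± 18.4 in the spots with none (SD, n = 4), higher in 4 of 4 frames. Irf4, a regulator of plasma cell formation that other leukocytes and pigment cells also use, gave 42 of their 114 UMIs in the rich spots, at 346 CPM there and 31.9 in the spots with none. The 9 T cell and leukocyte genes came to 704 ± 82.7 CPM in the rich spots and 276 ± 93.9 in the spots with none, and 68 of their 89 UMIs in the rich spots were of Ptprc.

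The sums of complement genes and of vessel genes were also higher in the rich spots in 4 of 4 frames. The 8 classical complement genes came to 3498 ± 2705 CPM in the rich spots and 1075 ± 149 in the spots with none, and C3 gave 384 of their 481 UMIs in the rich spots. The 10 vessel and serum entry genes came to 931 ± 170 and 460 ± 89.8 CPM. Of their 114 UMIs in the rich spots, Vwf gave 51 and Myh11 27. Summed over the frames, Cldn5, Cdh5, Acta2 and Tagln were also higher there. Cdh5 and Acta2 were higher in 3 of 4 frames, Tagln in 2 and Cldn5 in 1. Rgs5 (90.6 against 93.7 CPM), Plvap (16.5 against 21.1), Pecam1 (8.24 against 8.71) and Alb (0 against 1.45) were not higher. The sum of the 9 antibody receptors and transporters ran the other way, with 149 ± 83.3 CPM in the rich spots and 251 ± 62.3 in the spots with none, and was higher in 1 of 4 frames. It rested on 22 UMIs in the rich spots, and its genes were split. Fcgr1 (41.2 against 115 CPM), Trim21 (8.24 against 65.3) and Fcgr4 (8.24 against 16.3) were lower there. Fcgr2b (24.7 against 6.53), Fcgr3 (49.4 against 22.1), Fcer1g (32.9 against 18.5) and Fcgrt (16.5 against 13.1) were higher when summed over the frames. Frame by frame, Fcgr3 was higher in 1 of 4, on 6 UMIs in the rich spots. Fcgr2b, Fcer1g and Fcgrt were higher in 2 of 4, on 3, 4 and 2 UMIs. Pigr, which carries polymeric IgA across epithelia, had 0 UMIs, as did Fcamr. These are sums over regions that differ in make-up, and the part of region in them was not tested.

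Few list genes had enough UMIs for the region tests. By edgeR, 2 of 3 complement genes tested were higher in the coat than in the neural retina, C1s1 (log2 fold 1.94, adjusted p = 7.89e-05) and C1qa (1.96, adjusted p = 0.0005803), and 2 of 3 vessel genes, Myh11 of smooth muscle (1.89, adjusted p = 3.643e-05) and Vwf (1.44, adjusted p = 8.565e-05). In the ganglion region Ptprc (1.65, adjusted p = 0.005024) and C3 (1.13, adjusted p = 0.0123) were higher than in the inner nuclear region, C3 by edgeR and not by DESeq2. The 2 plasma cell genes tested in the coat had 0 calls by edgeR, 0 at an unadjusted p of 0.05 and 0 by DESeq2.

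No gene outside the immunoglobulins followed the members closely across spots. By the mean over 4 frames of the within-frame Pearson correlation across spots with the summed members, the first 10 of 10340 genes were C3 (0.168), Lyz2 of macrophages (0.166), Il16 (0.148), Apoe (0.131), Txnip (0.129), Irf4 (0.128), the MHC class II gene H2-Ab1 (0.125), Ptprcap (0.122), Vwf (0.115) and Fbln1 (0.114). Of those compared, 0 were above 0.2 and 19 above 0.1. Pairs of the members themselves ranged from 0.0869 for Ighg2b and Igha to 0.486 for Igkc and Igha, so that some pairs of the scarcer heavy chains lay below C3 and Lyz2.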

How the data were processed

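The deposited matrices hold counts, whole numbers of UMIs per gene and spot over tissue, made by the authors with Space Ranger 2.0.0 per the file headers, on mm10 as the submitters' processing notes state. Not given in the sources used here were the settings of the aligner and the release of the annotation. Images and alignment files were not used, and they hold no barcodes, so spot positions were not known. Members and lists were chosen with earlier results of these data known.

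Spots with at least 20 UMIs of the 99 panel genes were scaled to 10000, logged, standardised (limit 10), reduced to 10 components and clustered (15 neighbours, Leiden resolution 0.6; scanpy 1.11.5). A cluster took the class holding most, and at least 3, of its 10 leading genes. After the data were seen, clusters whose first 2 leading genes belonged to another class were left unnamed; the rule without this exception was added as an alternative. CPM is counts per 1000000 UMIs of a frame or region. Tests summed UMIs per frame and region (at least 10 spots in each), leaving out panel genes, with edgeR 4.0.16 (minimum count 10, TMM) and frame as block, because the 2 regions of a pair lie on one section. Deviations of a frame's 2 regions from the region means had correlations of 0.0863, 0.0804, 0.0961 and 0.133 for the coat comparison and 0.0639, 0.0530 and 0.118 for ganglion against inner nuclear. DESeq2 1.42.0 was an alternative. The edgeR script was tested on simulated data. The SD beside a fold is over frames of log2 CPM (prior count 2).

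Genes named are the 7 members, list genes passing a test (up to 4 a list and direction), and the 10 genes with the highest mean within-frame correlation across spots; other names were chosen after their values were seen. Doublet calling does not apply to spots. Intervals cover counting error only. One gene of the B cell list is not reported here.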

Additional observations from a re-analysis of the deposited data

Results flagged for a closer look

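Among 25 sets of 4 frames looked at, 2 had a frame set far apart from the others; chance gives about 1 in 20. Ighm stood at 144.559 CPM in frame 3, against 23.4, 43.1 and 41.5 in the other frames. Ighg2b in the fibrous region stood at 126.111 CPM in frame 2, from 19 UMIs, against 0, 0 and 20.7 in frames 1, 3 and 4.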

How the results depend on the processing

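The comparisons leave out the unplaced spots, 47.0% of all, with 29.6% of the member UMIs. The number of genes called between coat and neural retina, 861, was 319 with at least 50 panel UMIs a spot and 544 to 1051 when single frames were left out. It was 832 with no replicate block, so the pairing by frame moved it little. The number between ganglion and inner nuclear region, 274, was 578 with at least 10 panel UMIs, 120 by DESeq2, 245 with no replicate block, and 23 to 135 with a frame left out. Without a filter on low counts 198 were called, 81.8% of them higher in the ganglion region, against 56.6%. Of the member log2 folds, Ighg2c in the coat ranged from -0.45 (without frame 2) to 1.31 (without frame 1) when single frames were left out. In the ganglion comparison Jchain turned to -0.14 with regions drawn by the highest class value, -0.50 without frame 1 and -0.77 without frame 3, and Igha to -0.15 without frame 3; without frame 2 they were 1.95 and 3.60. The cause was not tested. The share of Igkc spots with a heavy chain, 43.8%, was 51.6% at 2 or more UMIs and 45.2% after thinning. Of 49 values of single members' CPM and shares in the top 10 spots under other settings, log2 folds not among them, 43 stayed within 1 SD of the frames.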
